A study of Mus musculus with 12 samples.

Results

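The genes described here are the proteasome-named genes of the mouse, taken as every gene symbol that starts with Psma, Psmb, Psmc, Psmd, Psme, Psmf or Psmg followed by a digit. The deposited table held 50 of them among 24421 genes, and 48 had enough counts to be tested, among 13065 tested genes. By known function 31 of the 50 encode subunits of the standard 26S proteasome, whose subunits Adrm1 and Shfm1 carry other symbols. The remaining 19 comprise 3 immunoproteasome subunits, 2 tissue-specific core forms, 3 assembly chaperones of the regulatory base, 4 assembly chaperones of the core, 5 activators or inhibitors, and 2 symbols of other kinds (Psmc3ip and Psme2b). Psmd4, whose product is a ubiquitin receptor in the regulatory particle, received the closest description, with the question whether its transcript moved alone or with the other subunits.

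Hippocampal RNA of 2-month-old mice was read as 3′ end counts in 12 libraries, 3 for each of 4 genotypes: wild type (WT), 5xFAD, p75NTRko, and 5xFAD/p75NTRko, which carries both. All mice, controls included, had received BrdU, a thymidine analogue taken up by dividing cells. The 5xFAD model of familial Alzheimer's disease rests on mutant human transgenes driven by a neuronal Thy1 promoter. The p75NTRko label stands for mice lacking the neurotrophin receptor p75NTR, which Ngfr encodes. No allele was named, and neither strain background nor pooling of animals was given. Replicates were called biological without further detail, so p-values refer to these libraries and not to animals known to be separate. They set a difference against the spread between libraries, estimated over all 4 genotypes with information shared across genes.

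The 26S proteasome degrades proteins that carry ubiquitin chains. Its core is a barrel of stacked rings: the outer alpha rings form a gate, and the inner beta rings hold the catalytic sites, formed by Psmb5, Psmb6 and Psmb7. The regulatory particle on top of the barrel has a base, with a ring of ATPases (Psmc1 to Psmc6) and the scaffolds Psmd1 and Psmd2, and a lid, which removes the ubiquitin chain through Psmd14. In cells exposed to interferon, and in immune cells such as microglia, the catalytic subunits can be replaced by Psmb8, Psmb9 and Psmb10 to form the immunoproteasome. Subunits are assembled in fixed proportion, and their genes are known to be induced together by the transcription factor Nfe2l1 when proteasome activity is limiting.

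Libraries held 4316739 to 6683613 gene-assigned counts, and proteasome-named genes took 0.488% to 0.517% of them. Ngfr went against the receptor label: it had 32 to 64 counts in the 6 libraries labelled p75NTRko or 5xFAD/p75NTRko and 1 to 12 in the other 6. A 3′ tag outside a deleted stretch checks nothing, so genotypes below are those of the labels. Markers of neurons, microglia, endothelium and oligodendrocytes overlapped between WT and each other genotype in summed CPM. As a mean of log2 CPM, neuronal markers were higher in p75NTRko than in WT, at 7.96 to 8.10 against 7.70 to 7.94. On that scale they overlapped between WT and 5xFAD and between WT and 5xFAD/p75NTRko. Striatal markers, of which 1 of 6 was at 0 in every library, summed to 123 to 182 CPM in WT and to 80.7 to 119 in the other 9 libraries. Thalamic and habenular markers summed to 430 to 605 CPM in WT. Both single genotypes lay below that, with 248 to 287 CPM for 5xFAD and 211 to 249 CPM for p75NTRko. In 5xFAD/p75NTRko they ranged from 212 to 714 CPM. Choroid plexus markers summed to 1998 to 5010 CPM in WT and 155 to 1562 in 5xFAD, which do not overlap. Their sums ranged from 63.5 to 6299 CPM in the libraries of both receptor labels. Most of the sum was Ttr, at 1948 to 4873 CPM in WT and 142 to 1500 in 5xFAD. As a mean of log2 CPM the list overlapped, at 4.33 to 5.87 in WT and 2.07 to 4.57 in 5xFAD. Xist, expressed from the inactive X chromosome, was at 360 to 439 CPM in all WT and 5xFAD/p75NTRko libraries and in p75NTRko replicate 1, and at 1.53 to 3.58 CPM in the other 5. Summed Y-linked expression ran the other way. It was 0.332 to 1.36 CPM in the libraries high in Xist and 156 to 201 CPM in the other 5. The Xist classes thus have the pattern of female and male mice. All 3 WT libraries were high in Xist and all 3 5xFAD libraries low. From these 2 genotypes alone, a difference of 5xFAD from WT cannot be told apart from a difference between the classes.

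Psmd4 was lowest in WT, intermediate in 5xFAD and highest in the libraries of both receptor labels. Its level in CPM, which scales each count to a common library size, was 212.2, 233.7 and 209.2 in WT, with a mean of 218.4 ± 13.4 (SD, n = 3). In 5xFAD it was 286.9, 284.5 and 239.8 (270.4 ± 26.5). In p75NTRko it was 320.1, 355.0 and 366.6 (347.2 ± 24.2), and in 5xFAD/p75NTRko it was 321.4, 319.1 and 359.0 (333.2 ± 22.4). Every library of the other 3 genotypes lay above every WT library, every library of a receptor label lay above every 5xFAD library, and the 2 receptor-labelled genotypes overlapped each other. These values rest on 1140 to 2466 counts per library. In bulk tissue, more cells of a type and more RNA per cell cannot be told apart.

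Psmd4 was 1.59-fold higher in p75NTRko than in WT, a log2 fold change of 0.67 (SE 0.0970). It had the smallest p-value of all 13065 genes in that comparison (5.92e-06), but after Benjamini-Hochberg adjustment the p of edgeR's quasi-likelihood test was 0.0774, above the threshold of 0.05. In 5xFAD/p75NTRko against WT the log2 fold change was 0.61 (SE 0.0969, edgeR adjusted p 0.0614), and in 5xFAD against WT it was 0.31 (SE 0.0969, edgeR adjusted p 0.243). Against 5xFAD, the double genotype was higher by 0.30 (SE 0.0966, edgeR adjusted p 0.715). Against p75NTRko it differed by -0.06 (SE 0.0962, edgeR adjusted p 0.958). The interaction of transgene and receptor label, which is how far the double genotype departs from the sum of both single differences, was -0.37 (SE 0.137, edgeR adjusted p 0.469). With the Xist class as a term in the model, the difference of 5xFAD from WT became 0.14, that of 5xFAD/p75NTRko from 5xFAD became 0.47, and the interaction became -0.078. The difference of 5xFAD/p75NTRko from p75NTRko turned to 0.058. Xist class varied within a genotype only in p75NTRko, so the term rests on those 3 libraries.

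A single test across all 4 genotypes called Psmd4 (F = 19.8, edgeR quasi-likelihood test, Benjamini-Hochberg adjusted p 0.0290). It was 1 of 13 genes called among the 13065, a background of 0.0995%, and the 1 called among the 48 proteasome-named genes. The call of Psmd4 was lost in 9 of 19 alternatives. At an unadjusted p under 0.05 there were 3 of the 48 (Psmd4, Psma4 and Psmd11), against 10.4% of all genes. DESeq2 called 2 of the 48, Psma4 and Psmd4, against 1.39% of genes. Without WT replicates 1 or 3 the edgeR adjusted p was 0.131 or 0.0624. Without 5xFAD replicates 1, 2 or 3 it was 0.0771, 0.0837 or 0.0627, and without p75NTRko replicates 2 or 3 it was 0.117 or 0.102. Over all 19 alternatives it ranged from 7.76e-08 (DESeq2) to 0.131.

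Among the 7 libraries with Xist above 50 CPM, a subset chosen after the data were seen, Psmd4 was at 209.2 to 233.7 CPM in WT, 320.1 in the p75NTRko library and 319.1 to 359.0 in 5xFAD/p75NTRko. With the Xist class as a term in the edgeR model, the adjusted p across the 4 genotypes was 0.0735. In summed CPM, striatal markers were lower in the 9 libraries in which Psmd4 was higher. Thalamic and habenular markers summed to less in 5xFAD and in p75NTRko than in WT. Choroid plexus markers summed to less in 5xFAD than in WT but overlapped as a mean of log2 CPM. The sum of the 4 astrocyte markers was lower in p75NTRko than in WT, at 2084 to 2121 CPM against 2190 to 2578. Singly they went different ways. Aldoc was lower, at 1275 to 1350 CPM against 1371 to 1845. Slc1a3 was higher, at 531 to 555 CPM against 448 to 498, and Gfap and Aqp4 overlapped. As a mean of log2 CPM the 4 astrocyte markers were at 8.42 to 8.51 in WT. They were lower in every other genotype, at 8.31 to 8.33 in 5xFAD, 8.26 to 8.40 in p75NTRko and 8.09 to 8.27 in 5xFAD/p75NTRko. Neuronal markers were higher in p75NTRko than in WT on that scale, at 7.96 to 8.10 against 7.70 to 7.94. The part of any of these in the Psmd4 values was not tested.

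**Figure D1:**
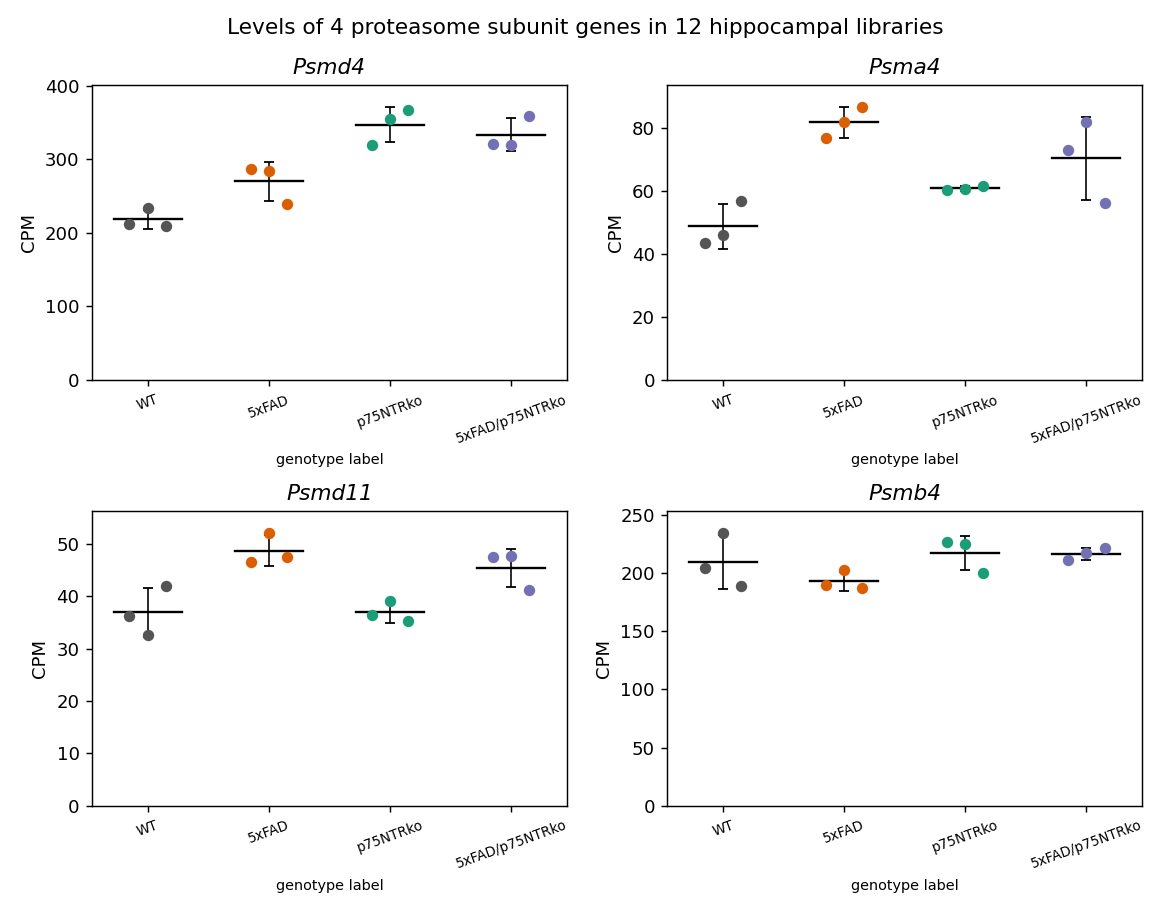
CPM (y axis) of Psmd4, Psma4, Psmd11 and Psmb4 in each library, by genotype label (x axis); points are libraries, horizontal bars are means and error bars are SD (n = 3). Psmd4 lies between 209.2 and 233.7 CPM in WT and between 319.1 and 366.6 in the 6 receptor-labelled libraries, whereas Psmb4 overlaps across these groups.

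Psmd4 lies at chr3:95032694-95042614 on the minus strand (GRCm38) and overlaps no other annotated gene. Its nearest proteasome neighbour is Psmb4, a beta-ring subunit at chr3:94884093-94886961 on the same strand, 0.146 Mb away. Psma4, the alpha-ring subunit with the widest range of genotype means, lies at chr9:54950790-54958030 on the plus strand and overlaps AY074887 on the opposite strand. Promoter sequences of these 3 genes are printed because the first and the last varied most with genotype among the 26S subunits, while Psmb4 shares the neighbourhood of Psmd4. Each is the 250 bases before the RefSeq transcription start (GRCm38.p6), 5′ to 3′ on the gene's strand, with capitals for a CCAAT box on either strand. The 3 windows are chr3:95042615-95042864 (minus strand), chr3:94886959-94887208 (minus strand) and chr9:54950609-54950858 (plus strand).
Psmd4: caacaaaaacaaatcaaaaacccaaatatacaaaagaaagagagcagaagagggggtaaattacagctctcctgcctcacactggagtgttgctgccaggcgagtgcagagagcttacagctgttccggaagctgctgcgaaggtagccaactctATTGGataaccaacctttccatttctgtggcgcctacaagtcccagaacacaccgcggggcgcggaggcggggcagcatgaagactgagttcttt
Psmb4: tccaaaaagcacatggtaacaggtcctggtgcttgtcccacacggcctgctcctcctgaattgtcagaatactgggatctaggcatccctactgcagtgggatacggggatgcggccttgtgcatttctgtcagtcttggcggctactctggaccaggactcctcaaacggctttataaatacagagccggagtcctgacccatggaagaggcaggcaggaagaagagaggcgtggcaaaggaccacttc
Psma4: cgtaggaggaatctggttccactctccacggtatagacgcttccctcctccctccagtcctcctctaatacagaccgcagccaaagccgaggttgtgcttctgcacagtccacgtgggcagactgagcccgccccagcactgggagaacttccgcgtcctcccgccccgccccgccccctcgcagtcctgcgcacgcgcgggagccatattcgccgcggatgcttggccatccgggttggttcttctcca

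The Psmd4 window held 1 CCAAT on the reverse strand, written ATTGG, at bases -95 to -91, and the windows of Psmb4 and Psma4 held 0. None of the 3 held TGACNNNGC, the core of the antioxidant response element bound by Nfe2l1 and Nfe2l2. Of 50 genes, 42 had a promoter entry, with 45 promoters in all. CCAAT on either strand was present in 33.3% of these and in 33.8% of all 32851 promoters of the same length, and TGACNNNGC in 11.1% and 10.2%. Both shares are close to the background, and a match of letters is a description only.

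The neighbourhood of Psmd4 was read from all genes within 500 kb, of which 22 besides Psmd4 were tested. Psmb4 was at 189.0 to 234.8 CPM in WT, 187.0 to 202.4 in 5xFAD, 200.1 to 226.3 in p75NTRko and 211.3 to 221.5 in 5xFAD/p75NTRko. Its log2 differences were -0.12 to 0.17 over the 5 comparisons. Pip5k1a, a lipid kinase gene 0.016 Mb from Psmd4, was higher by 0.15 in p75NTRko than in WT (SE 0.0910, edgeR adjusted p 0.542). At an unadjusted p under 0.05, 1 of the 22 neighbours was higher in p75NTRko than in WT and 3 were lower, against 11.5% of all genes in either direction.

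Among these neighbours Ctsk, which encodes the protease cathepsin K and lies 0.457 Mb away, was lower in all 6 receptor-labelled libraries than in the other 6. Its levels were 4.48, 3.08 and 4.48 CPM in WT and 4.41, 3.19 and 4.42 CPM in 5xFAD. In p75NTRko they were 1.85, 1.84 and 1.49 CPM, and in 5xFAD/p75NTRko 1.33, 1.75 and 0.820 CPM. The log2 differences were -1.22 in p75NTRko against WT (SE 0.335), -1.62 in 5xFAD/p75NTRko against 5xFAD (SE 0.352) and -1.63 against WT (SE 0.347), with edgeR adjusted p of 0.262, 0.230 and 0.184. Such a separation in the lower direction was found for 0.161% of all genes. The levels rest on few reads, since 3 counts corresponded to 0.446 to 0.690 CPM in these libraries. Ctsk was named after its values were seen and passed no adjusted test, the test across the 4 genotypes included (edgeR adjusted p 0.114).

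The other 30 of the 31 subunits, taken as a sum, did not follow Psmd4. Summed over the 30, WT reached 4359 ± 206 CPM and 5xFAD 4350 ± 60.2 (SD, n = 3). The p75NTRko libraries reached 4348 ± 75.7 CPM and 5xFAD/p75NTRko 4389 ± 126, and all groups overlapped. Outside these 31, Shfm1 was at 51.3 to 97.1 CPM in WT and 88.0 to 89.8 in 5xFAD. It was at 85.3 to 103.0 CPM in p75NTRko and 83.1 to 108.6 in 5xFAD/p75NTRko, and all groups overlapped. Adrm1 was at 6.44 to 9.47 CPM across the 12 libraries, with overlap throughout. Within the same libraries Psmd4 made up 4.67% to 4.86% of the summed CPM of all 31 subunits in WT and 5.16% to 6.27% in 5xFAD. It made up 6.78% to 7.92% in p75NTRko and 6.57% to 7.68% in 5xFAD/p75NTRko. The share thus separated the receptor-labelled libraries from the other 6 as the level of Psmd4 did.

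The mean log2 CPM of the other 30 subunits, in which low and high genes weigh equally, was 6.74 to 6.78 in WT, 6.82 to 6.85 in 5xFAD, 6.79 to 6.83 in p75NTRko and 6.79 to 6.91 in 5xFAD/p75NTRko. WT was thus the lowest genotype on this scale too, by less than 0.1 between genotype means. As with Psmd4, every WT library lay below every library of the other genotypes, the nearest values being 6.784 and 6.788. Unlike Psmd4, the mean did not separate the receptor-labelled libraries from 5xFAD. The log2 difference between Psmd4 and that mean was 1.01 ± 0.0901 in WT, 1.24 ± 0.160 in 5xFAD, 1.63 ± 0.122 in p75NTRko and 1.53 ± 0.150 in 5xFAD/p75NTRko (SD, n = 3). By library, WT (0.948 to 1.11) and 5xFAD (1.06 to 1.35) overlapped in this difference. The receptor-labelled libraries lay above both, at 1.49 to 1.73 in p75NTRko and 1.41 to 1.70 in 5xFAD/p75NTRko.

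**Figure D2:**
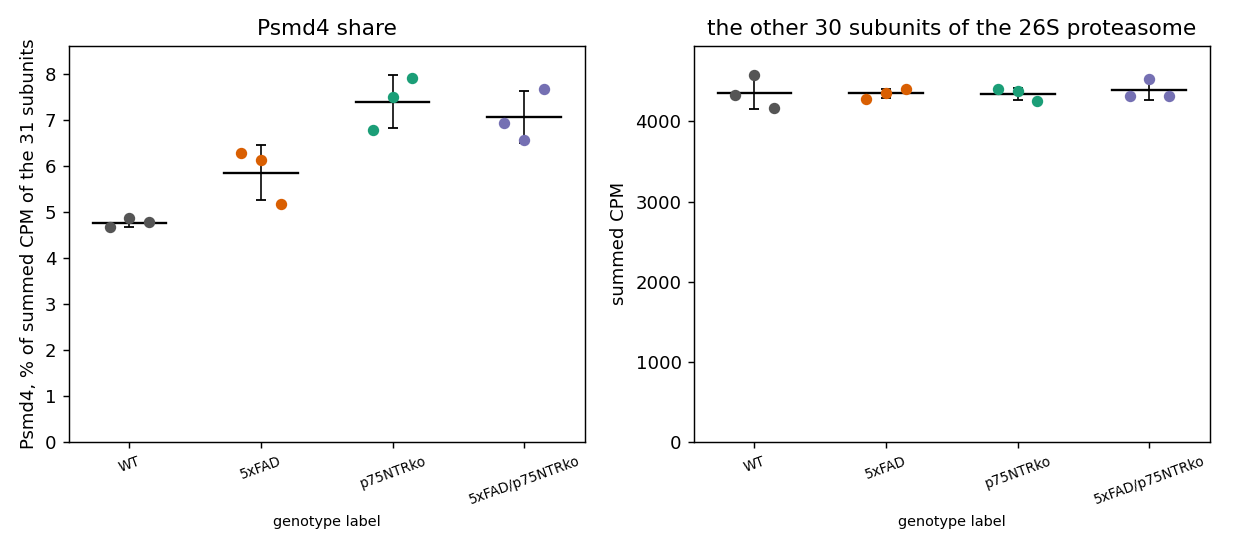
Left, Psmd4 as a percentage of the summed CPM of the 31 subunits of the 26S proteasome; right, summed CPM of the other 30 subunits; x axes give the genotype label, points are libraries, horizontal bars means and error bars SD (n = 3). The share is 4.67% to 4.86% in WT and 6.57% to 7.92% in the receptor-labelled libraries, while the summed levels of the other subunits overlap.

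The distance between the lowest and the highest genotype mean was 0.75 on the log2 scale for Psma4, 0.67 for Psmd4, 0.58 for Psmb2 and 0.40 for Psmd11. The median of this range was 0.17 over the 30 subunits other than Psmd4 and 0.31 over all tested genes. Set against the pooled SD within genotypes, Psmd4 had the largest ratio of the 48 (6.08, with a pooled SD of 0.11), followed by Psma7 (4.90) and Psma4 (4.22). Psma7, an alpha-ring subunit, combined a small range of 0.16 with a pooled SD of 0.03. It was at 141.0 to 150.6 CPM in WT, 153.7 to 156.8 in p75NTRko, 152.5 to 160.1 in 5xFAD and 161.4 to 166.5 in 5xFAD/p75NTRko.

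**Figure D3:**
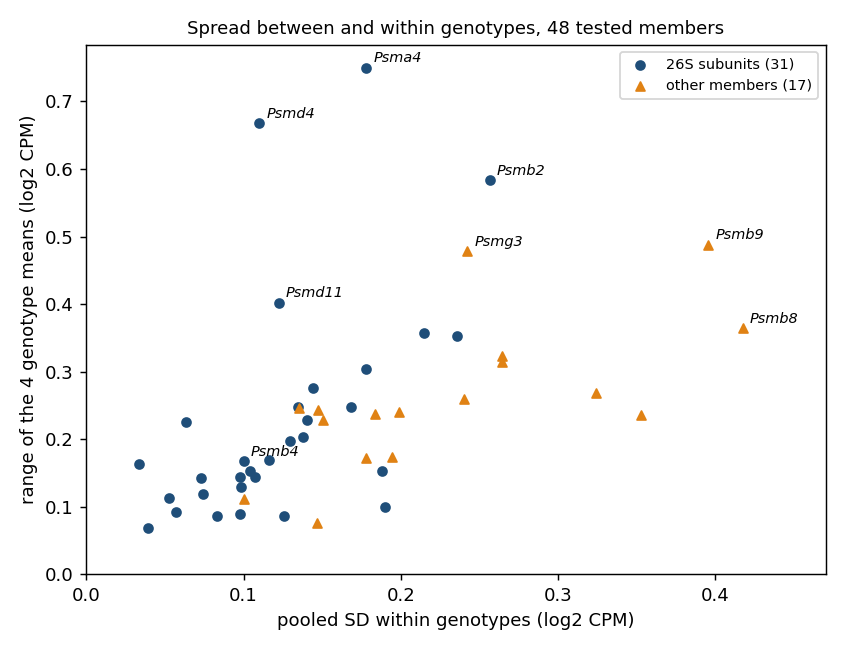
Range of the 4 genotype means (y axis, log2 CPM) against the pooled SD within genotypes (x axis, log2 CPM) for the 48 tested proteasome-named genes; circles are the 31 subunits of the 26S proteasome and triangles the other 17. Psmd4 combines a range of 0.67 with an SD of 0.11, and Psmb8 and Psmb9, the genes with the fewest counts among those labelled, lie at SDs of 0.42 and 0.40.

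In each of the 5 pairwise comparisons and in the interaction, 0 of the 48 proteasome-named genes passed the adjusted threshold of edgeR's quasi-likelihood test. The share of all genes called was 0.0536% for 5xFAD against WT and 0% for p75NTRko against WT. For 5xFAD/p75NTRko it was 0.0383% with 5xFAD as the reference, 0% with p75NTRko and 0% with WT, and for the interaction it was 0.0383%. At an unadjusted p under 0.05 there were 7 of the 48 in 5xFAD against WT (14.6%, all genes 13.9%) and 3 in p75NTRko against WT (6.25%, all genes 11.5%). For 5xFAD/p75NTRko there were 2 against 5xFAD (4.17%, all genes 5.08%), 1 against p75NTRko (2.08%, all genes 6.59%) and 7 against WT (14.6%, all genes 9.95%). The interaction had 3 (6.25%, all genes 9.32%). The share lay furthest above the background in 5xFAD/p75NTRko against WT, where 7 genes (Psmd4, Psma4, Psmb2, Psmd11, Psmb7, Psmb5 and Psma7) were higher and 0 lower. That count was 3 without 5xFAD/p75NTRko replicates 1 or 2, 4 without WT replicate 2 and 10 without WT replicate 3. In 5xFAD against WT it was 3 without WT replicate 2 or 5xFAD replicates 1 or 2, 12 without WT replicate 3, and 1 with the Xist class as a term. The comparisons against WT share the WT libraries and are not independent.

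DESeq2 called 1 of the 48, Psma4, in 5xFAD against WT (all genes 0.789%). It called 1, Psmd4, in p75NTRko against WT (all genes 0.429%) and again 1, Psmd4, in 5xFAD/p75NTRko against WT (all genes 0.237%). It called 0 in 5xFAD/p75NTRko against 5xFAD (all genes 0.169%), 0 against p75NTRko (all genes 0.172%) and 0 in the interaction (all genes 0.199%).

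Genes without overlap between libraries were counted in each direction and set beside the share of all genes. Of the 48, 9 were higher in every 5xFAD library than in every WT library (18.8%, all genes 10.5%) and 0 were lower (all genes 9.02%). In p75NTRko against WT 7 were higher (14.6%, all genes 7.93%) and 1, the core assembly chaperone gene Psmg3, was lower (2.08%, all genes 8.5%). In 5xFAD/p75NTRko 6 were higher than WT (12.5%, all genes 5.95%) and 0 lower (all genes 5.53%). Against 5xFAD 4 were higher (8.33%, all genes 5.18%) and 2 lower (4.17%, all genes 6.02%). Against p75NTRko 4 were higher (8.33%, all genes 6.54%) and 1 lower (2.08%, all genes 5.74%). In all 3 comparisons with WT the share was above that of all genes in the higher direction and below it in the lower, with the same WT libraries in each. Psmd4 was the 1 gene of the 48 that separated all 6 receptor-labelled libraries from the other 6 (2.08%, all genes 0.161%). Psmd4, Psma1 and Psma7 were the 3 that lay above WT in all 9 other libraries (6.25%, all genes 1.22%), and 0 lay below it (all genes 1.06%). With the transgene label, 0 separated the 6 libraries that carry it from the other 6 (background 0.352% higher and 0.23% lower).

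Among the 7 alpha-ring genes, whose products form the gated outer rings, Psma4 stood apart. WT libraries had 43.5, 46.1 and 56.7 CPM of Psma4 and 5xFAD libraries 76.7, 82.1 and 86.7 CPM. The p75NTRko libraries had 60.2, 60.7 and 61.5 CPM, and the 5xFAD/p75NTRko libraries 73.1, 82.1 and 56.1 CPM. All 5xFAD and all p75NTRko libraries lay above WT, and 5xFAD/p75NTRko overlapped it. The log2 difference from WT was 0.75 in 5xFAD (SE 0.136, edgeR adjusted p 0.0692), 0.32 in p75NTRko (SE 0.137, edgeR adjusted p 0.399) and 0.53 in 5xFAD/p75NTRko (SE 0.136, edgeR adjusted p 0.315). Across the 4 genotypes its edgeR adjusted p was 0.116. Striatal, thalamic and choroid plexus markers each summed to less in 5xFAD than in WT, and the Xist classes of these groups differ. As a mean of log2 CPM, astrocyte markers were also lower in 5xFAD, at 8.31 to 8.33 against 8.42 to 8.51 in WT. The part of any of these in the Psma4 values was not tested. Psma4 was therefore highest in 5xFAD, unlike Psmd4, and since strand use in counting was not given, its reads cannot be told apart from those of AY074887. Median log2 differences of the 7 alpha-ring genes were 0.11 in 5xFAD, 0.12 in p75NTRko and 0.15 in 5xFAD/p75NTRko against WT, and the median of all genes in each was 0.00 after rounding.

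Of the beta ring, Psmb2, Psmb5 and Psmb7 were higher in 5xFAD/p75NTRko than in WT at an unadjusted p under 0.05. Psmb2, a structural subunit, was at 9.12, 5.68 and 8.63 CPM in WT and 14.8, 10.1 and 10.5 in 5xFAD/p75NTRko, with no overlap. Its log2 difference was 0.60 (SE 0.218, edgeR adjusted p 0.469), on 35 to 89 counts per library. Median log2 differences of the 7 beta-ring genes from WT were 0.08 in 5xFAD, 0.09 in p75NTRko and 0.12 in 5xFAD/p75NTRko.

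The 6 base ATPases, which unfold substrates, had median log2 differences from WT of -0.10 in 5xFAD, -0.10 in p75NTRko and -0.04 in 5xFAD/p75NTRko. Psmc4 differed by -0.28 in p75NTRko against WT (SE 0.126, edgeR adjusted p 0.427), with 43.7, 36.1 and 35.4 CPM against 51.1, 45.6 and 42.8, which overlap. Psmc5 differed from WT by -0.24 in 5xFAD (edgeR adjusted p 0.355) and by -0.23 in p75NTRko (edgeR adjusted p 0.437). The latter was -0.092 without WT replicate 2 and -0.10 with the Xist class as a term, under which the Psmc4 difference was -0.089. The interaction for Psmc4 was 0.42 (SE 0.178, edgeR adjusted p 0.503), which turned to -0.06 with the Xist class as a term. Of the 2 scaffolds beside Psmd4 in the base, Psmd1 was at 325.9 to 387.5 CPM and Psmd2 at 203.7 to 239.0 CPM across the 12 libraries.

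In the lid, Psmd11, whose product helps to hold the regulatory particle on the core, was higher where the transgene label was present. It was at 36.3, 32.6 and 42.0 CPM in WT and 36.5, 39.1 and 35.2 in p75NTRko, and at 46.5, 52.2 and 47.5 in 5xFAD and 47.5, 47.8 and 41.3 in 5xFAD/p75NTRko. The groups did not overlap except for 5xFAD/p75NTRko replicate 3, which lay below WT replicate 3. The log2 difference was 0.40 in 5xFAD against WT (SE 0.117, edgeR adjusted p 0.234) and 0.30 in 5xFAD/p75NTRko against p75NTRko (SE 0.118, edgeR adjusted p 0.713). In 5xFAD the striatal, thalamic and choroid plexus markers each summed to less than in WT. As a mean of log2 CPM, astrocyte markers were also lower in 5xFAD, at 8.31 to 8.33 against 8.42 to 8.51 in WT. The Xist classes of 5xFAD and WT differ, as do those of some p75NTRko and 5xFAD/p75NTRko libraries. Oligodendrocyte markers summed to 3723 to 4839 CPM in 5xFAD/p75NTRko and 5766 to 7048 in p75NTRko. The part of any of these in the Psmd11 values was not tested. Psmd6 was higher by 0.34 in 5xFAD than in WT (edgeR adjusted p 0.349) and Psmd3 differed by -0.26 (edgeR adjusted p 0.325). Psmd7 differed by -0.20 in 5xFAD/p75NTRko against 5xFAD (edgeR adjusted p 0.878), and Psmd13 by -0.26 against WT (edgeR adjusted p 0.512). Without WT replicate 2 the Psmd3 value was -0.14 and the Psmd13 value -0.11, and with the Xist class as a term the Psmd7 value was -0.13. Psmd8 differed by -0.08 in 5xFAD/p75NTRko against p75NTRko (edgeR adjusted p 0.924). The deubiquitinase gene Psmd14 was at 52.9 to 80.7 CPM across all libraries.

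**Figure D4:**
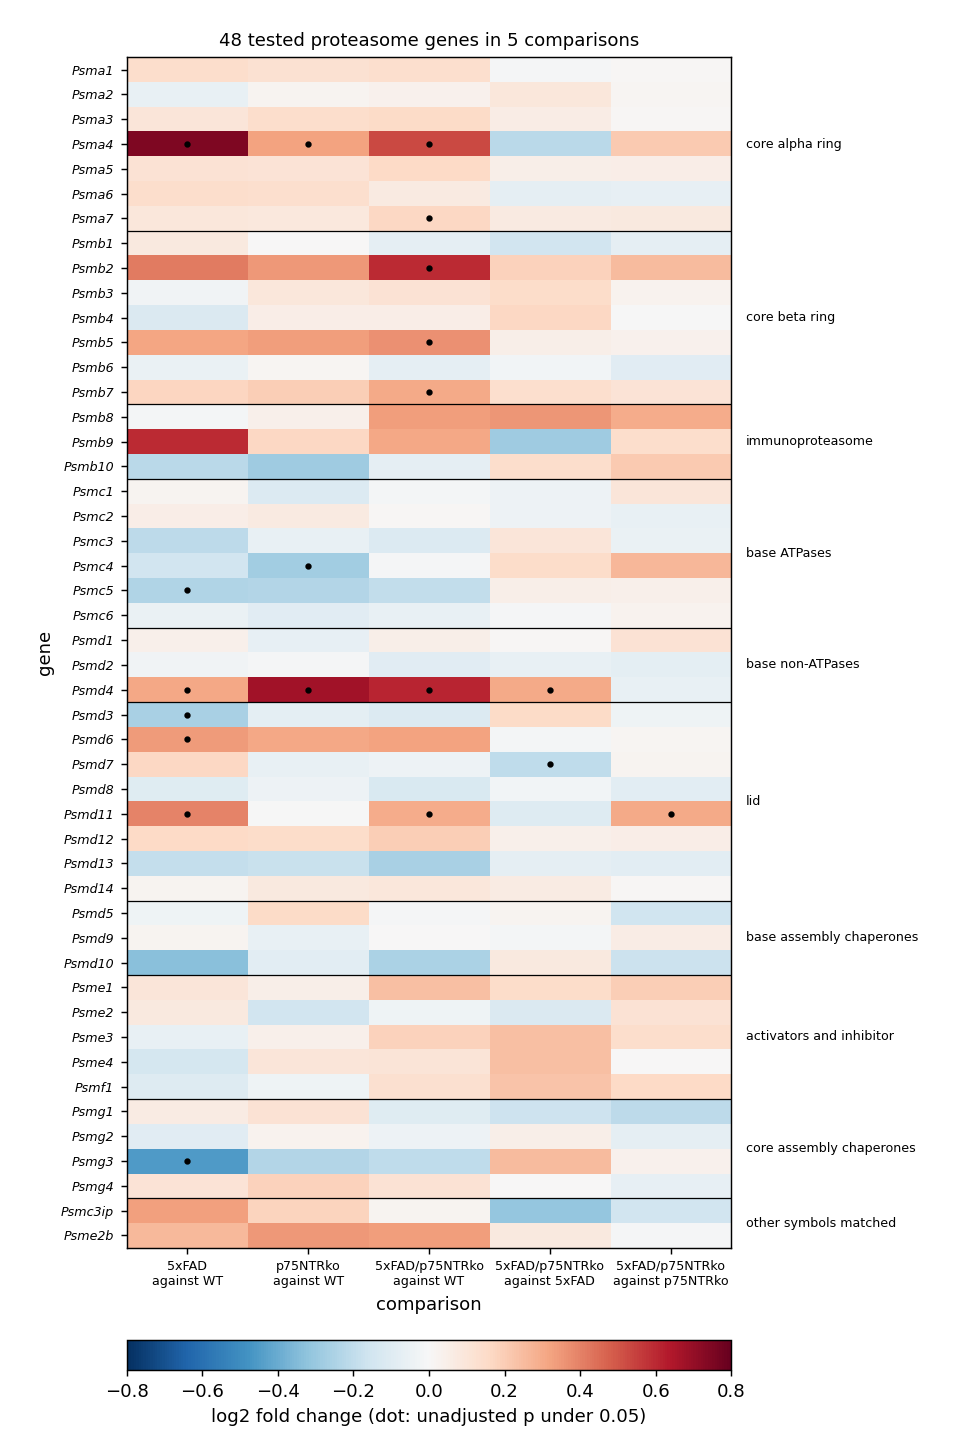
Log2 fold changes (colour scale from -0.8 to 0.8) of the 48 tested proteasome-named genes (rows, grouped by role) in 5 comparisons (columns); black dots mark an unadjusted p under 0.05. Psmd4 and Psma4 stand out with 0.67 in p75NTRko and 0.75 in 5xFAD against WT, and the other dots are scattered over 11 further genes.

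Over the 31 subunits of the 26S proteasome with a Psm symbol, the median log2 difference from WT was 0.05 for each of the other 3 genotypes. For 5xFAD/p75NTRko it was 0.04 with 5xFAD and 0.01 with p75NTRko as the reference. The medians of all tested genes were -0.00 to 0.01 in these 5 comparisons. Without Psmd4 the median of the 30 was 0.05 in 5xFAD, 0.04 in p75NTRko and 0.05 in 5xFAD/p75NTRko against WT, 0.03 against 5xFAD and 0.02 against p75NTRko.

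The catalytic subunits of the standard core were abundant and the immunoproteasome subunits sparse. CPM from 3′ counts carries no length term, and how evenly the 3′ ends of different genes were captured was not tested. Psmb6 was at 158.1 to 210.3 CPM, Psmb7 at 82.6 to 150.9 and Psmb5 at 38.5 to 73.9. Psmb10 was at 22.6 to 36.6 CPM, Psmb8 at 1.95 to 5.66 (11 to 34 counts per library) and Psmb9 at 1.67 to 4.92 (9 to 29 counts). Psmb5 was higher in 5xFAD/p75NTRko than in WT by 0.36 (SE 0.166, edgeR adjusted p 0.491) and Psmb7 by 0.30 (edgeR adjusted p 0.491), while Psmb6 differed by -0.07 (edgeR adjusted p 0.834).

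No immunoproteasome gene reached even an unadjusted p under 0.05 in any comparison. Psmb9 was at 1.94, 1.95 and 2.99 CPM in WT and 4.92, 2.63 and 2.74 in 5xFAD, which overlap, with a log2 difference of 0.60 (SE 0.375, edgeR adjusted p 0.482). Psmb8 differed between 5xFAD and WT by -0.02 (edgeR adjusted p 0.984) and Psmb10 by -0.22 (edgeR adjusted p 0.591). In p75NTRko against WT, Psmb8, Psmb9 and Psmb10 differed by 0.04, 0.17 and -0.28 (edgeR adjusted p 0.973, 0.892 and 0.560). Psmb9 overlaps Tap1, and Psmb8 and Psmb10 overlap antisense genes, so their reads may be shared.

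Of the summed CPM of all 6 catalytic genes, the immunoproteasome forms took 8.72% to 11.2% in WT, 8.19% to 9.48% in 5xFAD, 6.92% to 9.26% in p75NTRko and 8.02% to 11.5% in 5xFAD/p75NTRko, with overlap throughout. Microglial markers, from the cell type known for immunoproteasome expression in brain, summed to 463 to 543 CPM and overlapped as well.

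**Figure D5:**
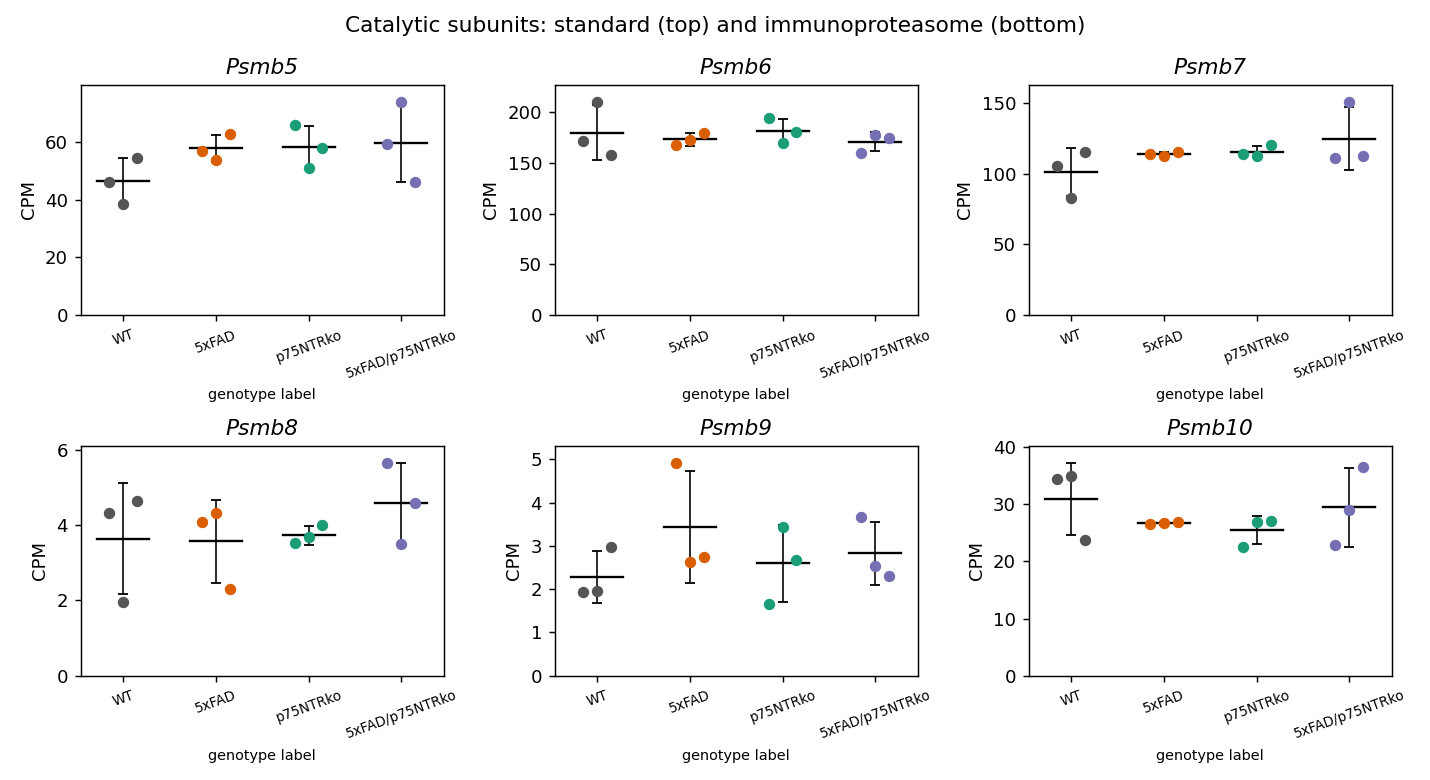
CPM (y axes) of the standard catalytic subunit genes Psmb5, Psmb6 and Psmb7 (top) and their immunoproteasome counterparts Psmb8, Psmb9 and Psmb10 (bottom) by genotype label; points are libraries, horizontal bars means and error bars SD (n = 3). Psmb8 and Psmb9 stay under 6 CPM in all 12 libraries, and the groups of each of the 6 genes overlap in all 5 comparisons.

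The activators were low and did not separate the genotypes in any adjusted test. Psme1 and Psme2 encode the subunits of the interferon-inducible cap, Psme3 its nuclear relative and Psme4 a large activator, and Psmf1 encodes an inhibitor. Psme4 was at 45.8 to 76.4 CPM, Psme3 at 34.0 to 45.8, Psmf1 at 23.9 to 33.9, Psme1 at 18.8 to 25.5 and Psme2 at 7.79 to 12.1. Their median log2 difference was -0.06 in 5xFAD, 0.04 in p75NTRko and 0.13 in 5xFAD/p75NTRko against WT. The largest difference with 5xFAD as reference was 0.24 for Psme3 and for Psme4 (edgeR adjusted p 0.980 for both). With the Xist class as a term the Psme3 value was 0.015. Psme2 and the symbol Psme2b, at 5.84 to 11.8 CPM, are near-identical copies whose reads may be split, so both are uncertain.

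Assembly chaperones ran from 5.07 CPM, the lowest value of Psmg1, to 60.05 CPM, the highest of Psmd10. Psmg3 was at 31.8, 34.9 and 31.7 CPM in WT and 17.7, 22.7 and 32.0 in 5xFAD, a log2 difference of -0.45 (SE 0.179, edgeR adjusted p 0.313). 5xFAD replicate 3 lay inside the WT range. The difference was -0.27 without 5xFAD replicate 1, -0.70 without replicate 3 and -0.30 with the Xist class as a term. Psmd5, a chaperone of the base, differed by -0.16 between 5xFAD/p75NTRko and p75NTRko (edgeR adjusted p 0.911). Psmc3ip, which is named for binding Psmc3 and acts in meiotic recombination, had 6 to 14 counts per library. Psma8, the testis form of an alpha subunit, had 0 to 4 counts and Psmb11, the thymus form of a beta subunit, 0 to 1. Neither passed the filter, and 3 counts corresponded to 0.446 to 0.690 CPM in these libraries.

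Ngfr lies on chromosome 11 (95568818 to 95587735, GRCm38), and 4 proteasome-named genes lie within 10 Mb of it: Psmb3 (2.12 Mb), Psmd3 (3.10 Mb), Psmc3ip (5.50 Mb) and Psme3 (5.73 Mb). In p75NTRko against WT they differed by 0.09, -0.08, 0.18 and 0.04 on the log2 scale (edgeR adjusted p 0.841, 0.806, 0.888 and 0.919). Psmd4, on chromosome 3, is not among them.

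Genes that work with the proteasome were read as well, in lists of proteasome-bound and shuttle proteins, transcription factors of the subunit genes, ubiquitin genes and activating enzymes, the Vcp segregase, and antigen presentation and interferon genes. Of 42 symbols listed, 36 were tested, and 0 passed edgeR's adjusted threshold in any of the 5 comparisons, the interaction or the test across the 4 genotypes, and DESeq2 called 0 as well. At an unadjusted p under 0.05 there were 3 of the 36 in 5xFAD against WT and 3 in p75NTRko against WT (8.33% each, all genes 13.9% and 11.5%). For 5xFAD/p75NTRko there were 3 against 5xFAD (8.33%, all genes 5.08%), 0 against p75NTRko (all genes 6.59%) and 2 against WT (5.56%, all genes 9.95%). The interaction and the test across the 4 genotypes had 2 each (5.56%, all genes 9.32% and 10.4%).

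Rps27a, which encodes ubiquitin fused to a ribosomal protein, varied most. WT libraries had 160.9, 338.2 and 151.6 CPM, and 5xFAD libraries 85.4, 131.6 and 65.0 CPM. The p75NTRko libraries had 421.5, 392.7 and 364.8 CPM, and the 5xFAD/p75NTRko libraries 108.7, 448.9 and 474.1 CPM. All 5xFAD libraries lay below WT and all p75NTRko libraries above it, while 5xFAD/p75NTRko replicate 1 lay far from the other 2. Log2 differences were -1.20 in 5xFAD against WT (edgeR adjusted p 0.280) and 1.87 in 5xFAD/p75NTRko against 5xFAD (edgeR adjusted p 0.336). Ribosomal protein genes have many processed copies, so this count is uncertain. Nfe2l2, a stress-responsive transcription factor, differed by -0.59 in 5xFAD/p75NTRko against 5xFAD (SE 0.249, edgeR adjusted p 0.885). Tap2, a peptide transporter of antigen presentation, was higher by 0.82 in 5xFAD than in WT (SE 0.257, edgeR adjusted p 0.243). Its levels overlapped, at 12.6, 9.09 and 23.1 CPM in WT and 24.4, 32.7 and 21.5 in 5xFAD. Akirin2, which brings proteasomes into the nucleus, was higher by 0.36 in p75NTRko than in WT (SE 0.159, edgeR adjusted p 0.421). These groups overlapped as well, at 181.3, 99.0 and 159.3 CPM in WT and 176.1, 182.8 and 204.6 in p75NTRko.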

How the data were processed

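Per the labels, total hippocampal RNA was made into 3′ mRNA libraries (QuantSeq, forward orientation, 14 amplification cycles). The authors deposited a table of raw read counts, with a row for each gene symbol and a column for each library. Per the submitters' processing notes, FastQC, HISAT2, SAMtools, HTSeq and edgeR were used with build mm10; versions, annotation and strand use are not given in the sources used here. The 5 summary lines that HTSeq writes entered neither library sizes nor tests; 32.2% to 38.5% of reads were assigned to genes. All libraries carry 1 batch label.

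From the counts, edgeR 4.0.16 in R 4.3.3 was run with filterByExpr, TMM scaling (factors 0.975 to 1.03) and 1 mean per genotype over all 12 libraries. Quasi-likelihood tests gave 5 pairwise comparisons, the interaction and an F test across the 4 genotypes, with p-values adjusted by Benjamini-Hochberg over the 13065 tested genes (threshold 0.05). CPM used TMM-scaled library sizes. Each standard error is the log2 fold change over the root of its F statistic. An exact permutation test of 3 against 3 libraries cannot go below 0.1, so calls rest on the model across genes. The closest pair of libraries within a genotype still differed beyond sampling noise, with a chi-square of 3.09 per degree of freedom. Ranges of CPM and counts run from the lowest to the highest library, and each SD is between the libraries of a genotype.

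Positions and promoters came from GENCODE and RefSeq tables of GRCm38. The procedure was tested on 5 simulated data sets with changes set in p75NTRko. The test across the 4 genotypes recovered 68.8% of 2-fold and 29.4% of 1.5-fold changes, and 6.48% of its calls were false. For p75NTRko against WT these values were 66.8%, 29.8% and 4.55%. Most changes of 1.5-fold were thus missed, so a gene not called may still differ. Members, lists and tests were chosen with earlier results of these data known, Psmd4 among them, so its call is not independent evidence. Genes named were Psmd4, catalytic and activator subunits, members called or with the 2 smallest p per comparison and direction, neighbours of Ngfr and Psmd4, members outside the filter, and list genes with the smallest p. Psma1, Psma7, Psmb2, Psmd1, Psmd2, Psmd6, Psmd10, Psmd14, Psmf1, Psmg1 and the levels of Ctsk and Rps27a were added after their values were seen. So were the levels of Adrm1, Shfm1 and the single marker genes Ttr, Aldoc, Slc1a3, Gfap and Aqp4. Same-numbered replicates are paired by nothing in the labels. The alternatives tried were a replicate block, the Xist class as a term, each library left out in turn, DESeq2 1.42.0, RLE scaling, no low-count filter, a filter at a mean of 50 counts, fits of the compared genotypes alone, no X or Y genes, and, added after seeing the data, only the 7 libraries high in Xist.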

Additional observations from a re-analysis of the deposited data

How the results depend on the processing

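In all 121 alternative values the median difference of the 26S subunits moved by no more than a set margin. The margin was the SD within a genotype of the per-library median log2 CPM, averaged over genotypes. It was wide enough to let a median change direction, so staying within it does not show that the direction held. The median kept its direction in 17 of 20 alternatives for 5xFAD/p75NTRko against 5xFAD (-0.025 to 0.052). It did so in 18 of 20 against p75NTRko (-0.019 to 0.038), in 18 of 19 for the interaction, and in all for the comparisons with WT. Of 524 values for named members, 508 kept direction and side of the threshold. With the Xist class as a term, Psmd4 in 5xFAD/p75NTRko against p75NTRko turned from -0.060 to 0.058, and the Psmc4 interaction from 0.42 to -0.060; the cause was not tested. Psmd4 in p75NTRko against WT kept its direction in all 21 alternatives (0.55 to 0.72) and passed the threshold in 7. These were DESeq2 (0.67), no filter on low counts (0.67), only the compared genotypes (0.67) and 4 fits that left out 1 library (values of 0.63 to 0.72 over all such fits), namely WT replicate 3, p75NTRko replicate 1, or 5xFAD/p75NTRko replicates 1 or 2. The adjusted p ranged from 9.04e-07 to 0.985.

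Members called went from 0 to 1 (Psmd4) in those 7 fits, from 0 to 1 (Psmd4) in 5xFAD/p75NTRko against WT with DESeq2 and with no filter, and from 0 to 1 (Psma4) in 5xFAD against WT with DESeq2, no filter, and without WT replicate 3 or 5xFAD/p75NTRko replicates 2 or 3 (0 to 1 over the fits without 1 library). Across the 4 genotypes, members called went from 1 to 2 (Psma4 and Psmd4) with DESeq2 and no filter, to 0 with the Xist class, and to 0 to 2 without 1 library. With the replicate block 0 members were called (Psmd4 edgeR adjusted p 0.121); same-numbered libraries correlated at -0.42 to 0.14 and 3 of 12 were closest to their own number, so numbers do not pair them.

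All genes called numbered 7 in 5xFAD against WT (0 to 97 over alternatives), 0 in p75NTRko against WT (0 to 56), 5 in 5xFAD/p75NTRko against 5xFAD (0 to 22), 0 against p75NTRko (0 to 25), 0 against WT (0 to 31), 5 in the interaction (0 to 25) and 13 across the 4 genotypes (1 to 181). The lowest counts behind a tested member were those of Psmb8, Psmb9 and Psmc3ip, at 6 to 34 per library.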
